A study of Mus musculus with 16 samples.

Results

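Tenascins, thrombospondins, periostin and SPARC are secreted matricellular proteins, which sit in the extracellular matrix and bind collagens, fibronectin, integrins and growth factors more than they build fibres themselves. RNA-seq values of 10 such genes were taken from tables of pancreatic stellate cells and of sympathetic ganglia, where each gene was found as the protein-coding entry with exactly its name, out of 56941 genes in each table. The members were the 4 tenascins of the mouse (Tnn, Tnc, Tnxb and Tnr), the thrombospondins Thbs1, Thbs2, Thbs3 and Thbs4, Postn (periostin) and Sparc. The rule that found the rows used names only and no measured value, but the members were chosen with earlier results of these data known.

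The study cultured superior cervical ganglia (SCG, the sympathetic ganglia of the upper neck) with fibroblast lines and sequenced each side. PSC was the mouse pancreatic stellate cell line mPSC1 alone (3 libraries), and PSC+SCG was the same line after coculture with SCG explants (3 libraries). SCG was explants alone (3 libraries), SCG+MEF was explants with NIH 3T3, a mouse embryonic fibroblast line that served as the control fibroblast (3 libraries), and SCG+PSC was explants with mPSC1 (4 libraries). Explants came from C57BL/6J pups of postnatal day 1 to 4, with 8 to 13 explants a well and, in coculture, 10000 cells on an insert for about 70 hours, so cells and explants shared medium without touching. The PSC groups therefore stand for 1 line, and each explant library pools several ganglia with all their cell types. All values are normalized counts, that is, reads per gene divided by a size factor for each library, and the PSC and SCG libraries were scaled separately, so groups were compared only within each of these sets. Nothing in the labels says that libraries of a group came from separate cultures or litters, so the p-values measure the spread between these libraries, which may be technical.

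Stellate cells and other fibroblasts lay down matricellular proteins when they are activated in wounds and in the stroma of pancreatic tumours. In peripheral ganglia, tenascin-C, periostin and the thrombospondins are made by glia, fibroblasts and vessel cells, and tenascin-R is best known from the matrix around neurons of the brain. Thrombospondins bind CD36, CD47 and integrins.

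Marker genes of broad cell types were read beside the labels, and these lists do not tell stellate cells from other fibroblasts. In the 6 PSC libraries the fibroblast markers (7 genes, among them Col1a1 and Pdgfra) summed to 395936 to 682209 normalized counts, while 7 of 8 sympathetic neuron markers were under 10 in every library. In the 10 SCG libraries the neuron markers (8 genes, among them Th and Dbh) summed to 109738 to 255004, beside glial markers at 56358 to 77601 and fibroblast markers at 208256 to 405357. Reads on genes, recovered from the steps of the normalized values, ran from 31900689 to 41632381 in the 14 libraries where they could be recovered.

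The genes are spread over the genome, except that Tnr and Tnn neighbour each other on chromosome 1 of GRCm39, with 153.3 kb and 1 protein-coding gene between them. Tnn spans 159912599 to 159981150 on the minus strand and Tnr 159351339 to 159759299 on the plus strand. Tnxb lies on chromosome 17 from 34879431 to 34938789 (plus strand) and Thbs2 on the same chromosome from 14885761 to 14914528 (minus strand). Thbs4 lies on chromosome 13 from 92888095 to 92931501 (minus strand). No member shared exon bases with another gene on its own strand, and at most 10.1% of a member's exon bases (Thbs1) were also exon of a gene on the other strand, which strand-specific counting keeps apart.

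The 250 bases before the RefSeq start of Tnn, Tnxb and Thbs2 are shown, 5′ to 3′, because these were the members that passed a test in some comparison. Sequences are from RefSeq (GRCm38.p6 table) and were placed on GRCm39 by an exact unique match, at chr1:159981146-159981395 (minus), chr17:34889259-34889508 (plus) and chr17:14914525-14914774 (minus). Capitals mark matches, on either strand, to the motifs searched: the TATA box (TATAAA), the CCAAT box (CCAAT), the GC box (GGGCGG), the cAMP response element (TGACGTCA), the AP-1 motif (TGANTCA), the TEAD motif (GGAATG), the RUNX motif (TGTGGT) and the E-box (CACGTG).
Tnn: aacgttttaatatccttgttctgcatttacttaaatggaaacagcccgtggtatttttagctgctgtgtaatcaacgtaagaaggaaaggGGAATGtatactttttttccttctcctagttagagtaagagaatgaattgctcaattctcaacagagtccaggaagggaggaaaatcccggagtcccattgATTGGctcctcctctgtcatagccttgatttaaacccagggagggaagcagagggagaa
Tnxb: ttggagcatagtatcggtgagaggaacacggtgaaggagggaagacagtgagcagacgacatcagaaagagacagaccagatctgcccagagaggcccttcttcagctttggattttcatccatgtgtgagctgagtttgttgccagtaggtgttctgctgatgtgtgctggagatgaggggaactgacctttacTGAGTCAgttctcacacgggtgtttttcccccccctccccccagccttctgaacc
Thbs2: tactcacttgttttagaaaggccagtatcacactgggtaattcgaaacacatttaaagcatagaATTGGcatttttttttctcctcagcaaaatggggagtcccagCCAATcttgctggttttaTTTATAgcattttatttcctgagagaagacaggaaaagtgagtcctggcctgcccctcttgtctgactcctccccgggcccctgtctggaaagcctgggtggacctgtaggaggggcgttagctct

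The Tnn sequence held GGAATG at position -160 and CCAAT, as its reverse complement, at position -59, counted from the start at 0. In the Tnxb sequence the only match was an AP-1 motif at position -55. This RefSeq start lies 10078 bases inside the GENCODE gene, so it is an inner start of Tnxb. In the Thbs2 sequence there were 2 CCAAT matches and a TATAAA match on the other strand at position -126. Among 32851 promoter windows of 300 bases, 37.4% held CCAAT, 14.7% GGAATG, 13.6% TATAAA and 7.81% the AP-1 motif. No motif searched was found in all 3 windows. Letters that match describe these windows and do not show a bound factor.

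Levels of different genes were compared per kb of exon, since longer genes collect more reads. In PSC alone Sparc, a collagen-binding protein also called osteonectin, was by far the highest, at 32572 ± 1660 normalized counts per kb (SD, n = 3), which ranked 22 among 16101 detected protein-coding genes. Thbs1, which activates latent TGF-beta, followed at 6704 ± 1693 per kb. The next in order were Thbs2 at 3065 ± 737, Postn at 2401 ± 439 and Tnc at 1331 ± 52.3 per kb. Thbs3 stood at 508 ± 259, Tnxb at 51.2 ± 6.46 and Tnn at 14.0 ± 7.16 per kb. Tnr at 0.959 ± 0.8286 and Thbs4 at 0.118 ± 0.205 per kb were close to nothing. The ranges over libraries of Thbs2 (2215 to 3525 per kb) and Postn (2002 to 2872 per kb) overlapped, so their order was not resolved, while all other neighbours in this order down to Tnr had separate ranges.

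In SCG alone the order changed at the top and at the bottom. Postn, a fasciclin-domain protein that cross-links collagen, led at 38173 ± 4764 per kb (rank 8 of 16876 detected protein-coding genes), with Sparc at 36695 ± 8167 (rank 10), and their ranges overlapped. Thbs1 at 5059 ± 2447 and Tnc at 4126 ± 1525 per kb also overlapped. Thbs2 stood at 1775 ± 693, Thbs4 at 510 ± 183, Thbs3 at 276 ± 50.9 and Tnr at 211 ± 90.8 per kb. Thbs2 reached 2574 per kb in its highest library, just above the lowest Tnc library at 2519, and the ranges of Thbs3 and Tnr overlapped too. Tnn at 45.3 ± 14.9 and Tnxb at 19.6 ± 10.5 per kb were the lowest members. Because PSC and SCG libraries were scaled apart, a level in the one set cannot be tested against the other. Side by side, Postn stood at 2401 per kb in PSC and 38173 in SCG, and Sparc at 32572 and 36695.

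**Figure D1:**
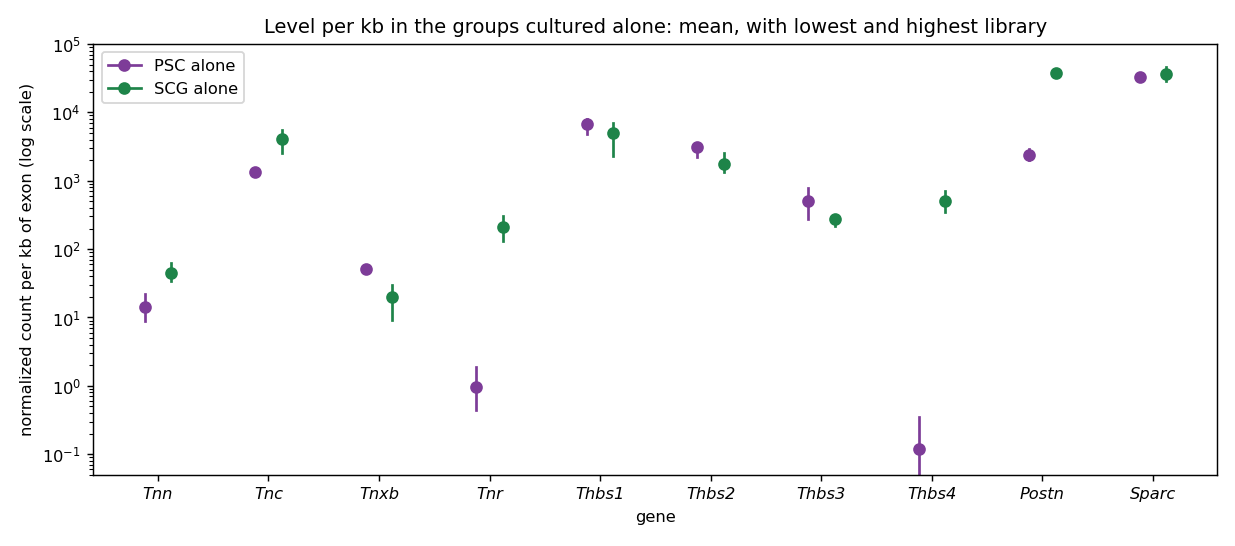
Levels of the 10 members in PSC alone (purple) and SCG alone (green), as normalized counts per kb of exon on a log axis. Points are means of 3 libraries and bars run from the lowest to the highest library, cut at the bottom of the axis for Thbs4 in PSC. Sparc sat near the top of both groups at 32572 and 36695, while Thbs4 and Tnr were near the floor only in PSC, at 0.118 and 0.959.

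Coculture of stellate cells with ganglia addressed which stellate cell genes respond to sympathetic tissue. Among the members, Tnn (tenascin-W, a tenascin of bone-forming tissue and tumour stroma) was 3.62-fold higher in PSC+SCG than in PSC on the log2(normalized count + 1) scale, and Tnxb (tenascin-X, which organizes collagen fibrils) 1.57-fold higher. The other members with higher means, Tnr, Thbs1, Thbs2, Thbs3 and Sparc, and those with lower means, Tnc and Postn, did not pass the test. Without a block for the replicate number no member passed, with an adjusted p of 0.9999 for all (limma, Benjamini-Hochberg over 21273 genes), and neither did any other gene, against 408 genes (1.92%) and 2 of 9 members (Tnn and Tnxb) at an unadjusted p under 0.05. With the replicate number as a block, Tnn and Tnxb rose past the threshold (an adjusted p no higher than 0.05 together with a change of 0.5 or more on the log2 scale), 2 of 9 members tested, where 0.461% of all genes (98 genes) passed and 0.315% passed as higher. The sign was the same in all 3 same-numbered pairs for 5 of 9 members and for 26.6% of all genes. The median log2 fold change of the 9 members was 0.31, beside -0.01 over all genes tested. Since the members were chosen with earlier results known, these shares and medians describe them and do not test the family.

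Tnn had 129, 52.2 and 63.6 normalized counts in PSC replicates 1 to 3, from 153, 46 and 66 reads. In PSC+SCG it had 449, 425 and 110. Replicates 1 and 2 of the coculture were well above every PSC library, but coculture replicate 3 was below PSC replicate 1, so the groups overlapped. The log2 fold change was 1.85 (SE 0.56, 95% confidence interval 0.58 to 3.13) without the block, and 1.85 (SE 0.27, interval 1.29 to 2.42, adjusted p = 8.19e-04) with it. Within same-numbered pairs the log2 difference was 1.79, 3.00 and 0.78, so the direction held in 3 of 3 pairs and the size varied widely. With 2 numbers kept, the blocked value was 2.39 for numbers 1 and 2, 1.28 for 1 and 3 and 1.89 for 2 and 3, and the last did not pass (adjusted p = 0.171).

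Tnxb had 776, 694 and 602 normalized counts in PSC and 956, 1332 and 992 in PSC+SCG. Every coculture library was above every PSC library, which was so for 2.68% of all genes tested. The log2 fold change was 0.65 (SE 0.17, interval 0.26 to 1.05) without the block and 0.65 (SE 0.13, interval 0.39 to 0.92, adjusted p = 0.0181) with it. Pairs 1 to 3 differed by 0.30, 0.94 and 0.72. With numbers 1 and 3 only, the blocked log2 fold change was 0.51 and did not pass (adjusted p = 0.363), whereas it passed with numbers 1 and 2 (0.62, adjusted p = 0.00479) and 2 and 3 (0.83, adjusted p = 0.0242).

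Tnr, the third tenascin with a higher mean, had 6.76, 25.0 and 5.78 normalized counts in PSC and 36.6, 29.6 and 17.0 in PSC+SCG. Between 6 and 30 reads lay behind these values in the libraries whose reads were recovered. Its log2 fold change of 1.31 (SE 0.60) did not pass with the block either (adjusted p = 0.251). Tnc, the tenascin most abundant in PSC, had 10411, 11092 and 10336 normalized counts in PSC and 9650, 7942 and 12182 in coculture, a log2 fold change of -0.12 (SE 0.16). The coculture libraries lay on both sides of the PSC libraries, which were close together.

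In the stellate cells Thbs1, Thbs2 and Thbs3 each had the lowest library at the same replicate number in both groups. Thbs1 had 50428, 30024 and 44913 normalized counts in PSC and 62575, 29175 and 62359 in PSC+SCG. Replicate 2 was the low library of both groups, and the log2 fold change was 0.25 (SE 0.32). Thbs2, a relative of Thbs1 that restrains vessel growth and binds matrix metalloproteinases, had 25061, 25579 and 16073 in PSC and 34032, 38548 and 16108 in coculture. Here replicate 3 was the low library of both groups and was nearly equal in them (log2 difference 0.003), while pairs 1 and 2 differed by 0.44 and 0.59. The blocked log2 fold change of Thbs2 was 0.35 (SE 0.12, adjusted p = 0.258) over 3 pairs and 0.52 (adjusted p = 0.00838) with numbers 1 and 2 only. Thbs3, a thrombospondin of cartilage and bone, had 2517, 1460 and 886 in PSC and 2563, 2295 and 1051 in coculture (log2 fold change 0.31, SE 0.42). Thbs4, a thrombospondin of tendon, muscle and nerve, was at 0 in 5 of 6 libraries and had 1 read in PSC replicate 2, so it was not tested. Where reads were recovered, a count of 0 allows up to 3 reads in a library, counting error only.

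Postn had 6694, 9604 and 7789 normalized counts in PSC and 6713, 8315 and 6713 in PSC+SCG (log2 fold change -0.14, interval -0.51 to 0.23). Sparc had 109732, 103494 and 99176 in PSC and 104354, 102285 and 115750 in coculture (log2 fold change 0.04, interval -0.34 to 0.43). Both genes overlapped between groups. The unblocked intervals of Postn, Sparc and Tnc (-0.49 to 0.26) were narrow beside that of Thbs3, which ran from -0.65 to 1.26.

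**Figure D2:**
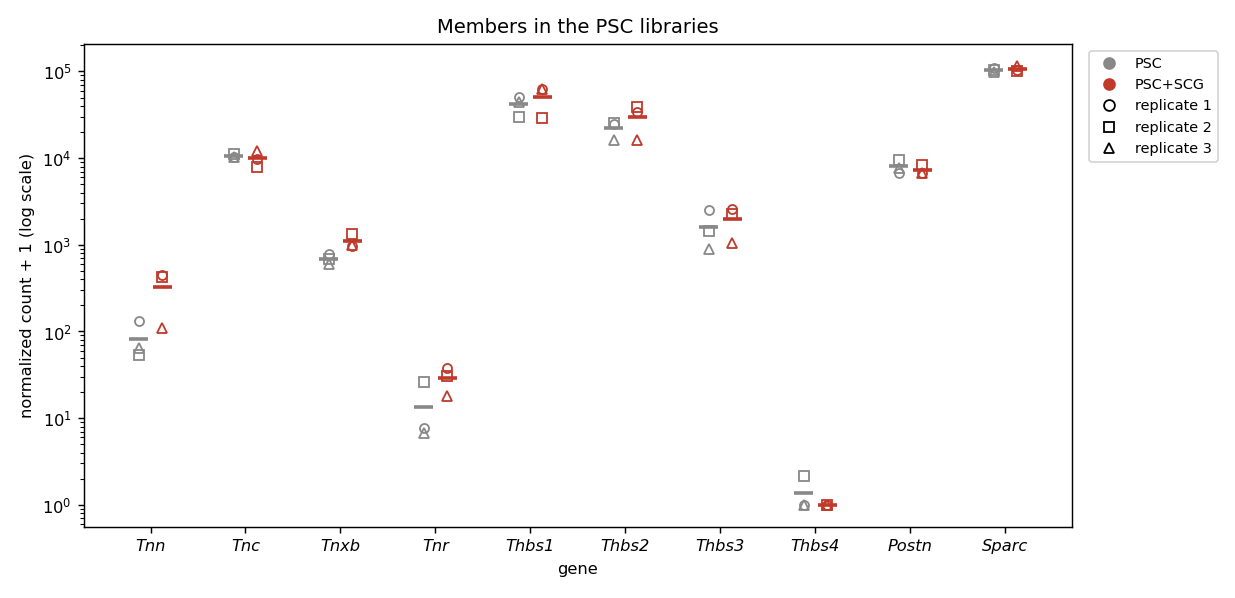
Normalized count + 1 (log axis) of each member in the 3 PSC (grey) and 3 PSC+SCG (red) libraries, with symbols for the replicate and bars for group means. Tnxb separates the groups, with PSC at 602 to 776 and PSC+SCG at 956 to 1332, and Tnn does so except for coculture replicate 3 at 110.

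Markers of ganglion cells were low in both PSC groups. The summed sympathetic neuron markers were 20.2 to 41.4 normalized counts in PSC and 14.9 to 31.6 in PSC+SCG, with Slc18a2 at 0 in all 6 libraries. Glial markers summed to 131 to 189 in PSC and 171 to 200 in PSC+SCG, with Sox10 at no more than 1 normalized count. Fibroblast markers summed to 457022 to 661983 in PSC and 395936 to 682209 in PSC+SCG, and cycling cell markers to 37742 to 53324 and 36298 to 52268. None of these marker lists held a gene that passed, with or without the block.

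In the explants no member passed the test in any of the 3 comparisons without the block, and with it only Thbs2 passed, between the explants of the 2 fibroblast cocultures. Against SCG alone, SCG+PSC had positive log2 fold changes for 6 and negative for 4 of 10 members (median 0.02, all genes 0.002), and SCG+MEF positive for 3 and negative for 7 (median -0.08, all genes 0.02). Without the block 0.0128% of 23491 genes (3 genes) passed in each of these, and with it 1.33% (313 genes) in SCG+PSC and 0.162% (38 genes) in SCG+MEF against SCG. The SCG+PSC and SCG+MEF groups share the SCG libraries as control, so their values are given side by side. Between SCG+PSC and SCG+MEF, 1 of 10 members passed with the block, where 0.788% of genes (185 genes) did and 0.66% did as higher, and 0% passed without it. The same sign in all 3 pairs was seen for 2 of 10 members between SCG+PSC and SCG (32.3% of all genes), 3 of 10 between SCG+MEF and SCG (27.4%) and 6 of 10 between the cocultures (33%). These fits used replicates 1 to 3 of each group. SCG+PSC replicate 4 is given with the values and entered a further fit. Because whole explants were sequenced, fewer cells of a type and less RNA per cell cannot be told apart.

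Thbs2 had 10291, 18676 and 9675 normalized counts in SCG replicates 1 to 3. In SCG+MEF it had 8048, 13124 and 8135. In SCG+PSC it had 13435, 20102, 12254 and 12282 in replicates 1 to 4. Replicate 2 was the highest library of each group, so the groups overlapped, but within each number SCG+MEF was below SCG and SCG+PSC above it. SCG+PSC exceeded SCG+MEF by 0.74, 0.61 and 0.59 on the log2 scale in pairs 1 to 3. The log2 fold change was 0.65 (SE 0.29, interval 0.0086 to 1.29, adjusted p = 1) without the block, and 0.65 (SE 0.08, interval 0.48 to 0.82, adjusted p = 0.0121) with it, a 1.57-fold difference. The count test on recovered reads with the block (edgeR's quasi-likelihood test) gave 0.65 with adjusted p = 0.0123, where it called 0.881% of genes. With all 4 SCG+PSC libraries and no block, the log2 fold change was 0.58.

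Against SCG alone, Thbs2 differed by 0.28 (blocked SE 0.08, adjusted p = 0.132) in SCG+PSC and by -0.37 (blocked SE 0.08, adjusted p = 0.117) in SCG+MEF, and neither passed. With 2 numbers kept, the difference between the cocultures passed for numbers 1 and 3 (0.67, adjusted p = 0.00628) and not for 1 and 2 (0.68, adjusted p = 0.0777) or 2 and 3 (0.60, adjusted p = 0.176). Beside it, the 4 cycling cell markers all rose with the block in SCG+PSC against SCG+MEF (median log2 fold change 1.02), summing to 10424 to 18898 normalized counts in SCG+PSC and 3750 to 13660 in SCG+MEF. Fibroblast markers summed to 281765 to 390570 in SCG+PSC and 286399 to 405357 in SCG+MEF, with 1 of 7 lower and none higher with the block. Endothelial markers summed to 1821 to 2678 and 1789 to 2036. The part of these cell types in the Thbs2 difference was not tested.

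Thbs4 had the largest difference from SCG alone among the members. It had 2267, 1505 and 1118 normalized counts in SCG, 2442, 2806 and 2311 in SCG+MEF and 2524, 1896, 4156 and 3085 in SCG+PSC. All SCG+MEF libraries were above all SCG libraries, which held for 2.99% of genes, while SCG+PSC replicate 2 was below SCG replicate 1. The log2 fold change was 0.79 (SE 0.30, interval 0.14 to 1.45) in SCG+PSC and 0.68 (SE 0.30, interval 0.03 to 1.34) in SCG+MEF. Neither passed, without the block (adjusted p = 1) or with it (adjusted p = 0.238 and 0.561). In SCG+PSC the pair differences were 0.15, 0.33 and 1.89, and without number 3 the blocked value fell to 0.24. Endothelial markers, which summed to 1167 to 1789 in SCG, 1789 to 2036 in SCG+MEF and 1821 to 2678 in SCG+PSC, were highest in the same library as Thbs4, SCG+PSC replicate 3, and their part in the difference was not tested.

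Thbs1 had 14350, 43472 and 36779 normalized counts in SCG, 18163, 32272 and 29576 in SCG+MEF and 16910, 27461, 20012 and 17674 in SCG+PSC. Replicate 1 was the lowest SCG and SCG+MEF library by far, and of SCG+PSC as well. The log2 fold change was -0.43 (SE 0.38) in SCG+PSC and -0.13 (SE 0.38) in SCG+MEF against SCG. Pair 1 differed upwards in SCG+PSC (0.24) and pairs 2 and 3 downwards (-0.66 and -0.88), and with numbers 2 and 3 only, Thbs1 passed as lower with the block (-0.77, adjusted p = 0.0355). Over all 3 pairs it did not (adjusted p = 0.331). Thbs3 had 943, 1006 and 698 in SCG, 1204, 1065 and 846 in SCG+MEF and 1055, 904, 729 and 737 in SCG+PSC, a log2 fold change of 0.02 (SE 0.19) in SCG+PSC and 0.24 (SE 0.19) in SCG+MEF.

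Among the tenascins of the explants, Tnc was the most abundant, with 34325, 44256 and 20078 normalized counts in SCG, 42980, 35543 and 18813 in SCG+MEF and 40437, 41786, 27091 and 28579 in SCG+PSC. Replicate 3 was the lowest library of each group, and the log2 fold change against SCG was 0.20 (SE 0.35) in SCG+PSC and -0.03 (SE 0.35) in SCG+MEF. Tnr, which was near the floor in stellate cells, had 2519, 1701 and 4035 in SCG, 3323, 2234 and 3649 in SCG+MEF and 2548, 2142, 3502 and 3690 in SCG+PSC. Replicate 2 was the lowest Tnr library of each group. The summed neuron markers were also lowest in replicate 2 of each group, at 109738, 160748 and 126408, and highest in replicate 3 at 255004, 240307 and 224206. Log2 fold changes of Tnr were 0.05 (SE 0.31) in SCG+PSC and 0.22 (SE 0.31) in SCG+MEF.

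Tnn, which rose in the stellate cells with the block, had 234, 361 and 196 normalized counts in SCG, 277, 207 and 193 in SCG+MEF and 280, 256, 193 and 237 in SCG+PSC. The groups overlapped widely and the log2 fold change was -0.08 (SE 0.26, interval -0.65 to 0.48) in SCG+PSC and -0.19 (SE 0.26, interval -0.76 to 0.37) in SCG+MEF. Tnxb had 124, 407 and 263 in SCG, 176, 152 and 168 in SCG+MEF and 129, 217, 147 and 122 in SCG+PSC. The SCG libraries were the most spread, from the second lowest to the highest of all 10, and the differences of -0.56 (SE 0.37) and -0.51 (SE 0.37) did not pass (adjusted p = 0.506 and 0.721 with the block).

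The 2 most abundant members did not pass in any explant comparison. Postn had 139432, 133993 and 109524 normalized counts in SCG, 113036, 118284 and 114138 in SCG+MEF and 125267, 126925, 119410 and 128692 in SCG+PSC. The SCG+PSC libraries were all above the SCG+MEF libraries, which was so for 3.9% of genes, by 0.10 on the log2 scale (SE 0.13, interval -0.18 to 0.39). Sparc had 93067, 144952 and 113919 in SCG, 98922, 132192 and 117420 in SCG+MEF and 106545, 142367, 105873 and 106914 in SCG+PSC. Replicate 2 was the highest Sparc library in each group, and the means of replicates 1 to 3 were 117313 in SCG, 116178 in SCG+MEF and 118262 in SCG+PSC. Log2 fold changes of Sparc were 0.02 (SE 0.20) in SCG+PSC and 0.00 (SE 0.20) in SCG+MEF against SCG.

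**Figure D3:**
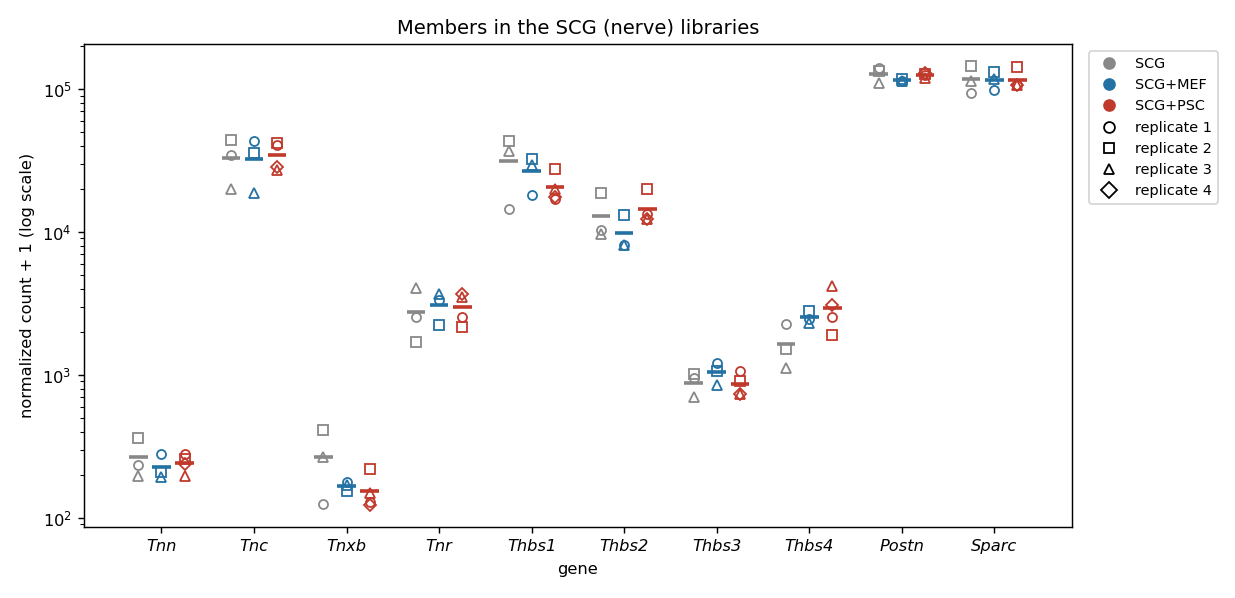
Normalized count + 1 (log axis) of each member in SCG (grey, 3 libraries), SCG+MEF (blue, 3 libraries) and SCG+PSC (red, 4 libraries), with symbols for the replicate and bars for group means. Groups overlap for most members, and Thbs2 replicate 2 is the highest library of each group at 18676, 13124 and 20102.

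**Figure D4:**
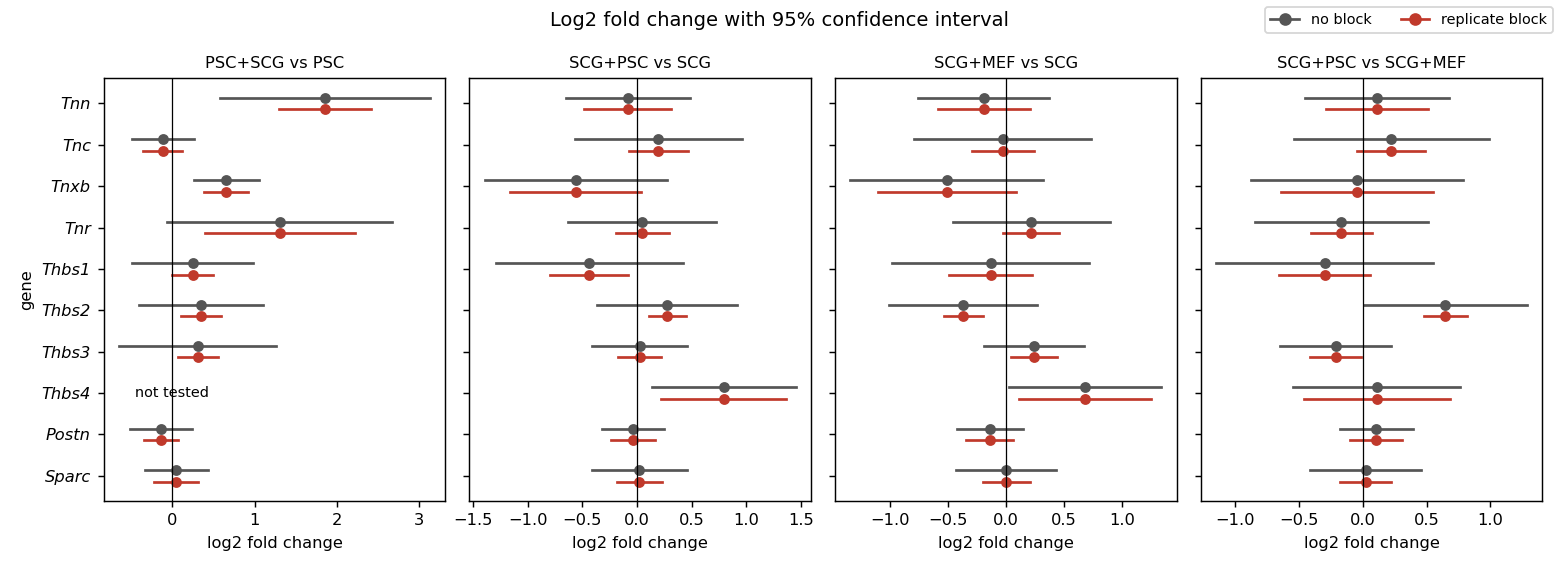
Log2 fold change of each member with its 95% confidence interval from limma in 4 comparisons, without a block (grey) and with the replicate block (red). Blocking narrows the intervals without moving the estimates, for Tnn in PSC+SCG from 0.58 to 3.13 to 1.29 to 2.42 around 1.85, and for Thbs2 in SCG+PSC against SCG+MEF from 0.0086 to 1.29 to 0.48 to 0.82 around 0.65.

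**Figure D5:**
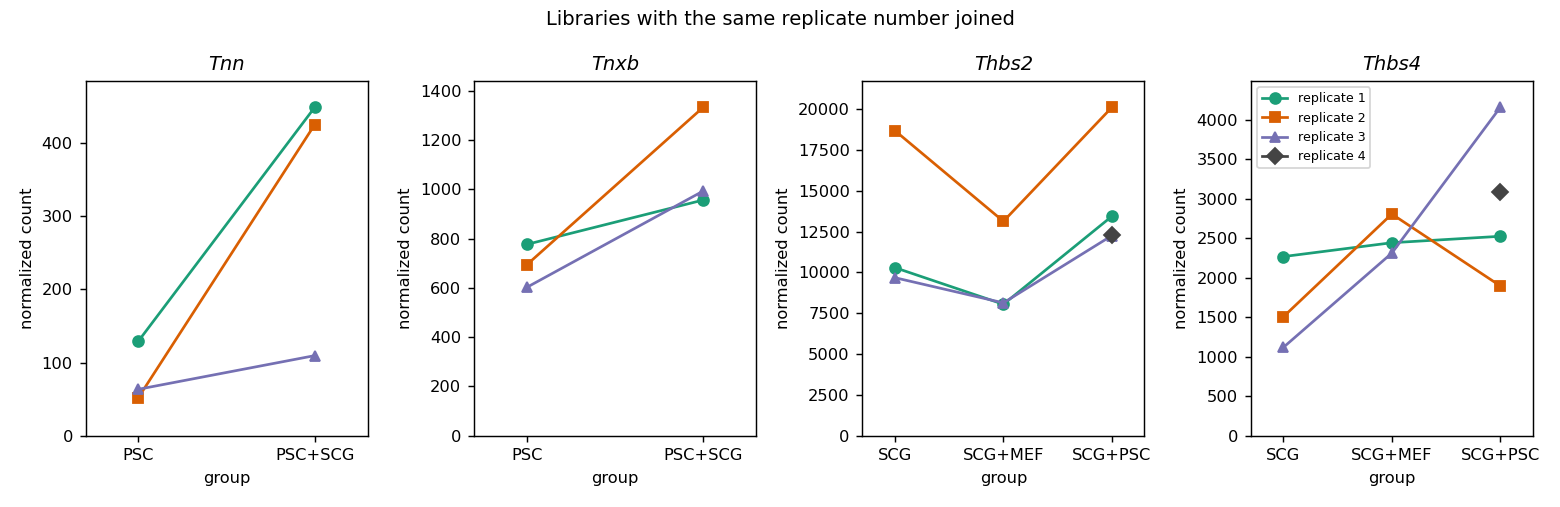
Normalized counts (linear axes from 0) of Tnn and Tnxb in PSC and PSC+SCG, and of Thbs2 and Thbs4 in SCG, SCG+MEF and SCG+PSC, with libraries of the same replicate number joined. All 3 Thbs2 lines are lowest at SCG+MEF and highest at SCG+PSC, while the Thbs4 line of replicate 3 alone climbs from 1118 to 4156.

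The wider set of matricellular genes, their receptors and partners was read from 6 lists of 56 genes. In PSC+SCG against PSC 49 could be tested, 38 had a positive log2 fold change (median of the 49, 0.18), and none passed with or without the block. All 13 receptors tested had a positive log2 fold change (median 0.21), beside a median of -0.01 over all genes tested. These genes share the same libraries and the lists were chosen with earlier results known, so the shared sign was not tested. Lrp1, an uptake receptor for thrombospondins, had 42678, 55228 and 50412 normalized counts in PSC and 42673, 53399 and 88139 in PSC+SCG, so replicate 3 alone was higher in coculture. Itgb1 stood at 40105 ± 8576 in PSC+SCG and 35423 ± 4228 in PSC (SD, n = 3). Among the matrix partners, fibronectin (Fn1) stood at 236072 ± 23170 in PSC+SCG and 177812 ± 22562 in PSC (log2 fold change 0.41, SE 0.21), and Col1a1 at 280855 ± 63062 and 303890 ± 57131. Of the TGF-beta group, the latent TGF-beta binding protein Ltbp2 had the lowest blocked adjusted p (0.0771) at a log2 fold change of 0.40. The CCN family had a median of 0.05, with Ccn1, an early response gene of fibroblasts, at 7819 ± 5324 and 7210 ± 2938.

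In the explants none of the 56 list genes passed without the block. With it, 2 of 56 rose in SCG+PSC against SCG, where 1.33% of all genes passed, and none passed in the other comparisons. Fbln1, which encodes the matrix protein fibulin 1, had 534, 767 and 610 normalized counts in SCG and 912, 1034, 899 and 730 in SCG+PSC, where replicate 4 alone was below an SCG library (log2 fold change 0.59, blocked SE 0.11, adjusted p = 0.0191). Itga4, the integrin alpha 4 chain, had 422, 1047 and 480 in SCG and 711, 1216, 939 and 1020 in SCG+PSC, higher in 3 of 3 pairs in groups that overlapped (0.64, blocked SE 0.13, adjusted p = 0.0341). Beside these, all 4 cycling cell markers (median log2 fold change 1.16) and 1 of 7 fibroblast markers (median 0.38) rose with the block in SCG+PSC against SCG. Cycling markers summed to 2695 to 13132 normalized counts in SCG and 10424 to 18898 in SCG+PSC, and fibroblast markers to 208256 to 390833 and 281765 to 390570. The part of these cell types in the Fbln1 and Itga4 differences was not tested. The list medians in SCG+PSC against SCG ran from -0.10 for the CCN family to 0.27 for the periostin and thrombospondin relatives and fibulins. All 8 genes of this last list had a positive log2 fold change, beside a median of 0.002 over all genes tested. In SCG+MEF against SCG, 6 of the 8 were positive. In that comparison 0 of the 8 genes of the TGF-beta list were positive (median -0.12). Genes of a list share the same libraries, so these shared signs were not tested. Osteopontin (Spp1) stood at 19899 ± 1659 in SCG+PSC and 28688 ± 8763 in SCG, a log2 fold change of -0.48 that did not pass (adjusted p = 0.0805 with the block). Replicates 1 to 3 of Spp1 had 32470, 34925 and 18668 in SCG and 19687, 21654 and 18356 in SCG+PSC. With 3T3 cells (SCG+MEF) Spp1 had 21736, 21166 and 14796. It was thus below SCG in each same-numbered pair of both cocultures and was not particular to SCG+PSC.

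Genes whose pattern over libraries was most like that of a member were taken as a description. Over the 6 PSC libraries, Tnn was most like Arhgap42 (Pearson r = 0.98), Itm2a (0.98) and Hlf (0.98), among 11080 protein-coding genes. Over the 10 SCG libraries, Tnn was most like the macrophage lysozyme gene Lyz2 (0.93), Acot6 (0.91) and Ltbp1 (0.89), and Thbs4 was most like Pthlh (0.95), Il13ra1 (0.93) and the endothelial gene Pecam1 (0.93), among 12134 genes. The libraries in each set share their replicate numbers. These are the highest of many correlations over few libraries, so values this high can arise by chance and do not show a source cell.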

How the data were processed

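RNA-seq libraries were stranded mRNA libraries aligned with STAR 2.7.10b (GRCm39) and counted per gene by strand, per the labels and the study's methods. The authors then divided counts by DESeq2 1.38.3 size factors (R 4.2.2), separately for PSC and SCG libraries, and deposited the quotients, a normalized signal in which replicates were not pooled. No column of another series was present. Members and lists were chosen with earlier results of these data known. Genes summing to at least 10 were tested with limma 3.58.1 (R 4.3.3, trend) on log2(normalized count + 1), in 6 PSC libraries and in 9 SCG libraries (SCG+PSC replicate 4 in an alternative), with calls made where the Benjamini-Hochberg adjusted p was no higher than 0.05 and the change was 0.5 or more on the log2 scale. The experimental dates that the study modelled are not tied to libraries by any label, so the replicate number was an alternative block. Same-numbered libraries deviated together from their group means over genes (correlation 0.231 to 0.475 in 3 PSC pairs and 0.135 to 0.382 in 9 SCG pairs, against -0.349 to 0.121 and -0.256 to -0.00365 for different numbers). Deviations from a group mean cancel over its libraries, so the correlations for same and for different numbers are not independent. The numbers were taken to pair the libraries from these correlations alone, since no label says what a number marks. Whole reads were recovered (tolerance 0.1) for 14 of 16 libraries and tested with edgeR 4.0.16 and DESeq2 1.42.0 in the 9 SCG libraries. Exon lengths came from the GENCODE basic set of a later release of the same build. Named genes were all members, list genes past the threshold, up to 3 list genes with the highest means and the 3 genes most like Tnn and Thbs4 (mean of at least 100). The markers Slc18a2, Sox10 and Lum, and the single fibroblast and mural markers of the flagged results, were named after their values were seen. Scripts were tested on simulated data. Depth limits the precision most for members with few reads, such as Tnr, Thbs4 and Tnn in PSC libraries and Tnxb and Tnn in SCG libraries.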

Additional observations from a re-analysis of the deposited data

Results flagged for a closer look

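Thbs2 in the 4 SCG+PSC libraries had 1 library apart from the others. Replicate 2 was at 20102 normalized counts against 12254 to 13435, a gap that was 0.850 of the group's range, above Dixon's critical value for 4 samples. Sparc in the same group had replicate 2 at 142367 against 105873 to 106914, a gap of 0.971 of the range. Replicate 2 was the highest Thbs2 and Sparc library of SCG and SCG+MEF too. For a single gene, chance alone would mark about 1 in 20 groups in this way. The genes share these libraries, so their marks are not independent, and the share of all genes marked was not counted. The same library had the lowest summed neuron markers of its group, 126408 against 183325 to 224206. In this library the summed cycling (18898 against 10424 to 12997), fibroblast (390570 against 281765 to 330109) and mural markers (29066 against 17218 to 19082) were highest. Single markers differed, as Col1a1, Col1a2 and Pdgfrb were highest there and Col3a1 was not. Pdgfra (1148 against 1417 to 1674), Dcn (3059 against 3761 to 5538) and Lum (1158 against 1721 to 2221) were lowest there. Of the mural markers, Acta2 (20495), Notch3 and Myh11 were highest there, and Rgs5 and Des were not. Summed fibroblast markers were highest in replicate 2 of SCG and SCG+MEF too. The part of these cell types in the Thbs2 and Sparc values was not tested.

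Thbs2 lay on opposite sides of SCG in the 2 cocultures. It was above SCG in SCG+PSC in 3 of 3 pairs (0.38, 0.11 and 0.34 on the log2 scale) and below SCG in SCG+MEF in 3 of 3 pairs (-0.35, -0.51 and -0.25), against the same SCG libraries. Neither difference from SCG passed in limma with the replicate block (adjusted p = 0.132 and 0.117). The same sign in all 3 pairs was seen for 32.3% and 27.4% of all genes in these comparisons. The share of all genes with opposite signs in the cocultures was not counted. The direct difference of 0.65, which does not use SCG, passed in limma with the replicate block (adjusted p = 0.0121) and not without it (adjusted p = 1).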

How the results depend on the processing

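Other pseudocounts (0.5 and 8), a stricter filter (10 or more normalized counts in 3 or more libraries), testing every gene with a value and quantile normalization left the number of members past the threshold at 0 in all 4 comparisons, and so did edgeR and DESeq2 without a block in the 3 SCG comparisons. The count tests were not run on PSC libraries because reads could not be recovered for PSC+SCG replicate 1. With the replicate block the members past the threshold went to 2 in PSC+SCG against PSC and 1 in SCG+PSC against SCG+MEF (also 1 with edgeR and the block), and the block changed no other member's call. The block took all genes past the threshold from 0 to 98 (PSC+SCG against PSC), from 3 to 313 (SCG+PSC against SCG), from 3 to 38 (SCG+MEF against SCG) and from 0 to 185 (SCG+PSC against SCG+MEF). edgeR with the block gave 316, 35 and 207 in the SCG comparisons, and DESeq2 without it 61, 22 and 18. All 4 SCG+PSC libraries gave 8 in SCG+PSC against SCG. Fits of the block with 2 numbers and edgeR with the block were chosen after seeing the data. With 2 pairs the spread is drawn mostly from other genes.

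Leaving out 1 library, or 1 number with the block, gave 0 to 3 members and 0 to 463 genes in PSC+SCG against PSC, 0 to 1 members and 1 to 349 genes in SCG+PSC against SCG (Thbs1 without number 1), 0 to 54 genes in SCG+MEF against SCG, and 0 to 1 members and 0 to 276 genes in SCG+PSC against SCG+MEF. The highest gene counts came with the block, without number 3 in PSC and without number 2 in the SCG comparisons.

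Log2 fold changes that changed sign did so without passing. On leaving out a library or number, in PSC+SCG against PSC, Tnc ran from -0.30 to 0.064, Thbs3 from -0.063 to 0.71 and Sparc from -0.045 to 0.10. In SCG+PSC against SCG, Tnn ran from -0.27 to 0.17, Tnc from -0.12 to 0.45, Tnr from -0.25 to 0.37, Thbs3 from -0.14 to 0.16, Postn from -0.14 to 0.032 and Sparc from -0.13 to 0.19. In SCG+MEF against SCG, Tnn ran from -0.41 to 0.11, Tnc from -0.35 to 0.32, Tnr from -0.086 to 0.54, Thbs1 from -0.63 to 0.17 and Sparc from -0.16 to 0.16. In SCG+PSC against SCG+MEF, Tnc ran from -0.13 to 0.47, Tnxb from -0.32 to 0.16, Thbs4 from -0.26 to 0.45 and Sparc from -0.12 to 0.12. In SCG+PSC against SCG, Tnr was -0.015 in edgeR and -0.011 in DESeq2, Thbs3 -0.014 after quantile normalization and -0.042 with all 4 SCG+PSC libraries, and Sparc -0.057 and -0.012 in those same fits. In SCG+PSC against SCG+MEF, Sparc was -0.037 after quantile normalization and -0.011 with all 4 libraries. The cause of these shifts was not tested.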
